A study of Mus musculus with 48 samples.

Results

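The clock output genes that peak together with Dbp in the liver were followed through every library of the series. The 10 genes were Dbp, Tef and Hlf, Nr1d1 and Nr1d2, Per1, Per2 and Per3, and Ciart and Usp2. They are 10 of the 55335 genes listed in the age and NudC count tables, and all 10 are also among the 52982 genes of the spike-in table. The members were fixed by name but chosen by their input levels, known to be higher in young than in aged livers, so that contrast is given as a description without a test. All 10 are protein-coding and were matched by Ensembl identifier.

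The series tested ONE-seq, in which the nicotinamide part of the NAD cap of an RNA is replaced by a biotin tag. The tagged RNA is caught on streptavidin, and the RNA that the bacterial pyrophosphatase NudC cuts free from the tag is kept. Every enrichment library had an input library made from an aliquot of the same reaction taken before capture. Polyadenylated RNA from livers of C57BL/6 mice was sequenced from 48 libraries in 3 experiments. The age experiment held 4 young livers of 2 months and 4 aged livers of 18 months. The NudC experiment used livers of 12 months, with 2 input and 2 enrichment libraries in each of a NudC+ arm and a NudC- arm without the enzyme. In the spike-in experiment, RNA of 18-month livers received a synthetic RNA of which 0%, 1%, 5% or 10% carried NAD and the remainder an m7G cap, with 3 input and 3 enrichment libraries per mixture. Mice were kept in a 12:12 h light and dark cycle, and the hour at which livers were taken is not given in the sources used here, so age and time of day cannot be told apart.

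The mammalian clock is a feedback loop. BMAL1 (encoded by Arntl) and CLOCK or NPAS2 bind E-boxes and switch on the genes of their own repressors, the PER and CRY proteins. The same E-boxes drive Nr1d1 and Nr1d2, whose products REV-ERB alpha and REV-ERB beta in turn repress Arntl and Npas2. Dbp, Tef and Hlf encode the PAR bZIP activators, which act at D-boxes in the genes of liver enzymes and in Per genes. These outputs swing widely over the day in liver, and RNAs under REV-ERB repression, such as Arntl, peak when Dbp is low.

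In GRCm38 (GENCODE M21) the PAR bZIP genes are annotated apart from each other, with Dbp (ENSMUSG00000059824) at chr7:45705088-45710203 on the plus strand, Tef (ENSMUSG00000022389) at chr15:81802421-81826863 on the plus strand and Hlf (ENSMUSG00000003949) at chr11:90336536-90390895 on the minus strand. The REV-ERB genes are Nr1d1 (ENSMUSG00000020889) at chr11:98767932-98775333 on the minus strand and Nr1d2 (ENSMUSG00000021775) at chr14:18204054-18239127 on the minus strand. The Per genes are Per1 (ENSMUSG00000020893) at chr11:69095217-69109960 on the plus strand, Per2 (ENSMUSG00000055866) at chr1:91415982-91459324 on the minus strand and Per3 (ENSMUSG00000028957) at chr4:151003652-151044665 on the minus strand. The remaining members are Ciart (ENSMUSG00000038550) at chr3:95878503-95882251 on the minus strand and Usp2 (ENSMUSG00000032010) at chr9:44067021-44095627 on the plus strand. Counts cover the annotated exons of each gene, untranslated parts included.

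Sequences just before RefSeq transcription starts of the members were searched for these elements. RefSeq windows of 250 bases before a transcription start (GRCm38.p6) were found for 9 of the 10 members, in 11 windows, and Per2 was not in the table. In each window 3 elements were searched on both strands: the E-box CACGTG, the D-box TTATGTAA (or TTACATAA) and AGGTCA (or TGACCT), the core of the REV-ERB element. None of the matches overlapped. The windows printed here are those with a match, cut back to the bases outside exons of GENCODE M21, and the capitals mark the matches.
Ciart, chr3:95882252-95882478, minus strand: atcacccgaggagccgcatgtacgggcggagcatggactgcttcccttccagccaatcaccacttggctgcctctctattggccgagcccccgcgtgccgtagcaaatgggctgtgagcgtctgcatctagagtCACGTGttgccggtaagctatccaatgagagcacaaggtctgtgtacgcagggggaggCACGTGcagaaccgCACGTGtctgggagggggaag
Tef, second start, chr15:81811164-81811413, plus strand: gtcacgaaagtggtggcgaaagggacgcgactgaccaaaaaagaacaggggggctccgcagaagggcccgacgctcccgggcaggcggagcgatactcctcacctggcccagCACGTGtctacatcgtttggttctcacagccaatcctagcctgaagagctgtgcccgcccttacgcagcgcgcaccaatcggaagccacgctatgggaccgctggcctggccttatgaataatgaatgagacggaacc
Per1, first start, chr11:69098699-69098947, plus strand: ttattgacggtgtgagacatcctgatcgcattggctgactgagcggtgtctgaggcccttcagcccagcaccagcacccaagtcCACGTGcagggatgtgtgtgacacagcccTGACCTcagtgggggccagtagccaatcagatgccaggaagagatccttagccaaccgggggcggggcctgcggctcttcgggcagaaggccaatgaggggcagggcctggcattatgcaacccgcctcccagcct
Per3, chr4:151044666-151044915, minus strand: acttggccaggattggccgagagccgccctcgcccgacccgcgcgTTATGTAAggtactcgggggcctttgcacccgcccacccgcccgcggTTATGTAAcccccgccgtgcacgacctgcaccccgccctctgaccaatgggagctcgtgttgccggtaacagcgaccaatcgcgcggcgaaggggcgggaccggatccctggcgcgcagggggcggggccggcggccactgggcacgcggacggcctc
Nr1d2, chr14:18239128-18239356, minus strand: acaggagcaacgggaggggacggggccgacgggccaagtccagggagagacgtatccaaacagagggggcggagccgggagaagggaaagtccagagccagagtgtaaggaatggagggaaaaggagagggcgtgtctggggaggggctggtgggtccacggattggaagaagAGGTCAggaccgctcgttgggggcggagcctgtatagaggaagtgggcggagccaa
The Ciart window held 3 E-boxes, beginning 116, 58 and 44 bases before its start. Both Tef windows held 1 E-box, 127 and 138 bases before their starts, and the window of the first start lay in annotated exon sequence and is not shown. The first Per1 window held 1 E-box 166 bases and 1 REV-ERB core 137 bases before the start. Per3 alone among the members had D-boxes, 205 and 158 bases before its start, and Nr1d2 had 1 REV-ERB core 77 bases before its start. No match was found in the windows of Dbp, Hlf, Nr1d1, Usp2 or the second Per1 start. For Hlf, Nr1d1 and Usp2 the bases just after the RefSeq start were not found whole in a GENCODE M21 transcript, so those starts were not matched. The longest stretch of the Dbp window outside exons was 91 bases. Windows of Usp2, Per1 and Tef began inside the annotated span of the gene, and elements elsewhere in the genes were not searched. Among all 32851 RefSeq windows of the same length, 6.02% held the E-box, 0.819% the D-box and 14% the REV-ERB core.

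Depth and tissue were checked first. Totals per library ran from 9149931 to 14953661 read pairs in the age experiment, 7242321 to 8725646 in the NudC experiment and 3694383 to 10277863 in the spike-in experiment. Levels are given as cpm, the counts of a gene relative to the library size after TMM scaling within an experiment, so that 3 counts, taken as the smallest readable value, correspond to 0.189 to 1.07 cpm. The hepatocyte markers Alb, Apoa1, Ttr, Serpina1c and Tat were above 0 in every group, and their summed level was 90312 to 110518 cpm in young inputs and 56791 to 68509 cpm in aged inputs. Summed lymphocyte markers were at 3.54 to 4.06 cpm in young and 7.84 to 9.39 cpm in aged inputs. In bulk liver, fewer cells of a type and less RNA per cell cannot be told apart. No 2 libraries held identical counts. Livers were not all alike within a label: counts of Nnt, a mitochondrial transhydrogenase gene that some C57BL/6 stocks lack in part, were 5 to 12 and 3 to 5 in the inputs with 0% and 5% NAD-RNA but 752 to 985 and 1008 to 1057 in those with 1% and 10%. Counts of the urinary protein gene Mup7 were 23183 and 21925 in replicate 1 of the 2 NudC arms and 255 and 194 in replicate 2, so the arms shared this feature by replicate number.

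Of the PAR bZIP genes, Dbp had the widest difference between the ages of all 10 members and Hlf the smallest. Dbp stood at 157.3, 181.0, 156.8 and 151.6 cpm in the 4 young inputs and at 0.77, 1.33, 1.08 and 1.88 cpm in the 4 aged inputs, or 161.7 ± 13.1 against 1.27 ± 0.47 cpm (SD, n = 4). The groups were far apart, with 1535 to 1872 Dbp counts in young and 12 to 25 in aged libraries, and the fitted log2 difference was 7.0 (SE 0.18), a 127.9-fold difference. In the 4 inputs of 12-month livers Dbp was at 206 to 272 cpm, above every young input, whereas the 12 spike-in inputs of 18-month livers lay between 0.60 and 1.58 cpm with a median of 1.02 cpm. Tef was at 168.6 ± 12.9 cpm in young and 34.0 ± 3.6 cpm in aged inputs (SD, n = 4), a log2 difference of 2.31 (SE 0.12). Hlf went from 43.5 ± 3.3 to 29.8 ± 3.3 cpm (SD, n = 4), a log2 difference of 0.55 (SE 0.13), and its aged maximum of 34.0 cpm still lay under its young minimum of 40.2 cpm. The 3 paralogs thus covered a range from 1.46-fold for Hlf to 127.9-fold for Dbp in the same livers.

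Both REV-ERB genes were higher in every young than in every aged input. Nr1d1 was at 93.5, 77.1, 60.6 and 60.3 cpm in young and at 15.4, 21.1, 19.4 and 30.9 cpm in aged inputs, a log2 difference of 1.75 (SE 0.20). Nr1d2 was at 98.0, 81.0, 87.0 and 88.3 cpm in young and at 12.9, 18.2, 15.2 and 20.4 cpm in aged inputs, a log2 difference of 2.41 (SE 0.20). Nr1d2 was the one member that was lower in 12-month livers, at 57.4 to 68.4 cpm, than in the livers of 2 months.

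Among the Per genes, which encode the repressors of CLOCK and BMAL1, Per3 had the widest age difference. Per3 was at 15.8, 15.8, 15.8 and 17.9 cpm in young inputs and at 1.29, 1.14, 0.92 and 1.51 cpm in aged inputs, a log2 difference of 3.74 (SE 0.23). Per2 was at 10.9 to 18.4 cpm against 6.75 to 10.7 cpm, and the groups came within a fraction of a cpm of each other. Per1 was the member whose groups overlapped, at 6.87, 17.8, 26.7 and 24.2 cpm in young inputs and 2.12, 8.33, 5.78 and 14.6 cpm in aged inputs. Its log2 difference of 1.31 carried the largest standard error of the 10, 0.47.

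Ciart, which encodes a repressor of the CLOCK and BMAL1 pair, was at 6.25, 12.6, 7.57 and 10.2 cpm in young inputs and at 0.32, 1.20, 0.39 and 0.53 cpm in aged inputs, a log2 difference of 3.86 (SE 0.32) that rests on 5 to 19 counts per aged library. Usp2, which encodes a deubiquitinating enzyme, was at 45.9, 65.9, 45.9 and 54.1 cpm in young and at 2.19, 1.70, 2.7 and 2.19 cpm in aged inputs, a log2 difference of 4.60 (SE 0.19). For both, the lowest young input lay far above the highest aged input.

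**Figure D1:**
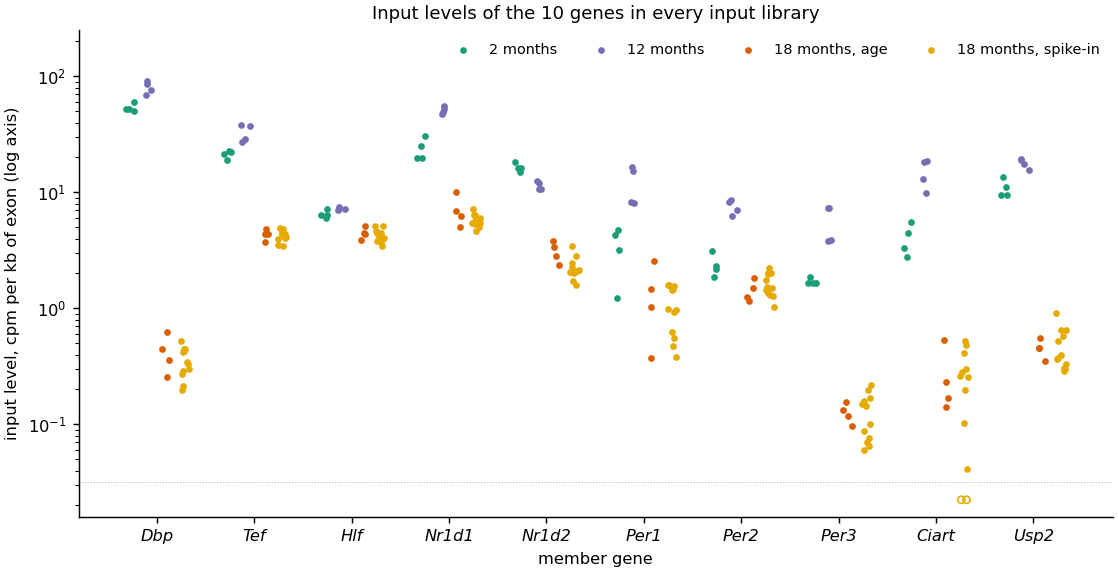
Input level of each gene per kb of merged exon (log axis), 1 point per input library, for 2 months (n = 4 libraries), 12 months (n = 4) and 18 months in the age (n = 4) and spike-in (n = 12) experiments, where libraries of the 12-month and spike-in sets may share livers, scaled within each experiment; open circles under the dotted line are libraries with 0 counts. Dbp, Per3, Ciart and Usp2 stand furthest apart between the 2- and 18-month livers, and the 18-month sets of both experiments overlap for all 10 genes.

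Every young input lay above every aged input for 9 of the 10 members, all but Per1. Over the 15636 genes tested this held for 14.6%, and it held in the opposite direction for 14.8%. A log2 difference of at least 1 with young higher was seen in 5.01% of all genes, and aged was higher by as much in 8.63%. Because the members were named for this contrast, nothing is read from these counts. Among the members, those just above and just below a log2 difference of 1 were Per1 at 1.31 and Per2 at 0.73. In the enrichment libraries, which share their livers with the inputs, 8 of the 10 members were higher in every young library, against 12.2% of all genes, and Dbp stood at 227 to 285 cpm in young and 1.00 to 1.55 cpm in aged libraries.

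Levels were also set side by side over the liver sets, on cpm scaled within each experiment, and beside the 14335 genes tested in all 3 experiments. In 8 of the 10 members every 12-month input lay above every 2-month input (25.9% of genes), Hlf overlapped, and Nr1d2 was lower (16.2% of genes). All 10 were higher in 12-month inputs than in the aged inputs of the age experiment (26.8% of genes), and 0 were separated between the 2 sets of 18-month inputs (2.56% of genes, in either direction). Against the spike-in inputs, 8 of the 10 were higher without overlap in young inputs (10.1% of genes), and Per1 and Per2 overlapped. These counts reuse the young or aged inputs on which the members were chosen, so nothing is read from them. Whether libraries of one number in the 2 NudC arms or in the 4 mixtures came from the same liver is not given in the sources used here, so n counts libraries and the number of livers may be smaller. By the Nnt counts, no liver was shared between the mixtures with 0% or 5% and those with 1% or 10% NAD-RNA. Per kb of exon Dbp was the most abundant of the 10 at 54.0 ± 4.4 cpm per kb in young inputs and 80.7 ± 9.8 cpm per kb in 12-month inputs (SD, n = 4 libraries each). At 18 months Dbp ranked 8 of 10, at 0.42 ± 0.16 (SD, n = 4) and 0.35 ± 0.10 cpm per kb (SD, n = 12) in the age and spike-in experiments, and Nr1d1 ranked first at 7.06 ± 2.14 and 5.72 ± 0.69 cpm per kb. Per3 was the lowest of the 10 per kb in all 4 sets.

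Arntl, the target of REV-ERB repression, ran opposite to Dbp. It had 5 to 11 counts in young inputs and 238 to 368 in aged inputs, 9 to 18 counts in 12-month inputs and 144 to 233 in spike-in inputs. Per kb of exon, Dbp exceeded Arntl 412- to 941-fold in the 2-month inputs and 291- to 584-fold in the 12-month inputs. In the 18-month inputs Arntl exceeded Dbp 4.25- to 12.2-fold in the age experiment and 4.77- to 14.6-fold in the spike-in experiment. The ratio needs no scaling between libraries, and the 2-month and 12-month livers fell on one side and both sets of 18-month livers on the other.

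**Figure D2:**
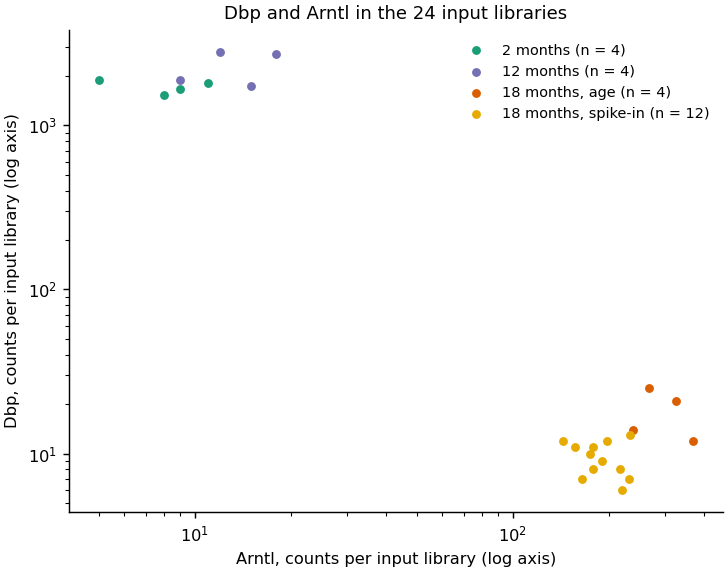
Counts of Dbp against counts of Arntl in the 24 input libraries (both axes logarithmic). The 2- and 12-month livers sit at 1535 to 2786 Dbp and 5 to 18 Arntl counts, and the 18-month livers of both experiments at 6 to 25 Dbp and 144 to 368 Arntl counts.

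Spread among livers of one label differed between the members. In the NudC experiment the 2 replicates differed little for Hlf, by 0.95- and 0.98-fold in the 2 arms, whereas replicate 2 was 1.90- and 2.00-fold above replicate 1 for Per1 and 1.87- and 1.93-fold for Per3. Ciart was 1.90- and 1.42-fold and Tef 1.35- and 1.32-fold higher in replicate 2, and Usp2 went the opposite way at 0.82- and 0.94-fold. In the spike-in experiment Per1 was lowest in replicate 1 in 4 of the 4 mixtures, at 2.13 to 3.53 cpm, against 8.11 to 8.90 cpm in replicate 2. Tef, Hlf, Nr1d1 and Nr1d2 were each highest in replicate 2 in 4 of the 4 mixtures.

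Between the inputs of the 4 spike-in mixtures, all from 18-month livers, none of the 10 members was called (edgeR quasi-likelihood F test, adjusted p = 1.0 for each, against 0.680% of 14850 genes called). No member had an unadjusted p under 0.05, and DESeq2 called 0 as well. The mean levels of Tef, the member with the most counts there, were 33.4, 33.9, 33.4 and 34.6 cpm at 0%, 1%, 5% and 10% NAD-RNA, a 1.03-fold range. Ciart had the widest range at 3.71-fold, with means of 0.79, 0.21, 0.47 and 0.69 cpm and 0 to 11 counts per library, and a difference of that size was not detectable at this depth.

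Other genes of the clock were read from a list of 13. In the young against aged inputs 1 of the 13 was higher and 4 were lower by a log2 difference of at least 1, with a median of -0.12 against -0.01 over all genes. Npas2, the partner of BMAL1, had 0 to 5 counts in young and 156 to 217 in aged inputs (log2 difference -6.14, SE 0.42), and Arntl followed at -4.72 (SE 0.22). Bhlhe41, a repressor that competes at E-boxes, ran with the members at 4.42 (SE 0.56), on 24 to 98 counts in young and 1 to 5 in aged inputs. The other 2 that were lower, named after their values were seen, were Cry1 at -1.45 (SE 0.18) and Nfil3, the repressor that opposes the PAR bZIP proteins at D-boxes, at -1.87 (SE 0.12).

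Of 7 genes known as targets of the PAR bZIP activators, 1 was higher and 2 were lower in young inputs by that margin. Cyp2a4 stood at -3.13 (SE 0.35), Cyp2b10 at -1.98 (SE 0.34), and Alas1, the first enzyme of haem synthesis, at 1.73 (SE 0.53). Alas1 varied widely within the young group, from 116 to 1257 cpm, against 178 to 192 cpm in aged inputs, so the aged livers lay within the range of the young. Cyp2a4 and Cyp2a5 are near-identical copies, and the counting could have split their reads.

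Among 7 genes of E-box output and NAD synthesis, Wee1, a cell cycle kinase under clock control, was the one past a log2 difference of 1, at 2.43 (SE 0.21). Nmrk1, a nicotinamide riboside kinase, differed by 0.90 (SE 0.21) and Nadk, which makes NADP from NAD, by -0.54 (SE 0.08). Of 6 immediate early genes, markers of acute stimulation at dissection, Junb was higher in young inputs by 1.39 (SE 0.35), Atf3 lower by a log2 difference of -2.08 (SE 0.34), and Ier2 differed by 0.59 (SE 0.13). Of the markers of other cells, none of 3 endothelial and none of 3 stellate genes, 1 of 4 Kupffer cell genes, 2 of 3 cholangiocyte genes, 2 of 3 lymphocyte genes and both erythroid genes passed a log2 difference of 1 in either direction, as did 2 of 5 hepatocyte genes. The part of these cells in the members' differences was not tested.

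The genes whose pattern was most like that of the members were sought over the 24 input libraries, by Pearson correlation with the mean z-score of the 10 within each experiment, among 14335 genes. The highest were Scnn1a (r = 0.87), Fbxo21 (0.84), Agxt (0.84), Stbd1 (0.83) and Nlrp6 (0.83), and among the lowest were Slc16a1 (-0.86), Gstm3 (-0.85), Apoa4 (-0.85) and Tubb2a (-0.84). These libraries share livers and depth, and 8 of them carry the young to aged difference, so the correlations are descriptions. Among the members, Tef lay nearest to their mean at 0.91, and Usp2 furthest from it at 0.40.

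Capture was measured as the log2 fold change of enrichment over input, with the TMM scaling that sets the typical gene near 0. In young livers 3 of the 10 members were higher in the enrichment libraries and 4 were lower (edgeR quasi-likelihood test, adjusted p under 0.05), where 27.0% and 27.2% of 15636 genes were called in each direction. In aged livers 1 was higher and 4 were lower, against 26.5% and 27.7% of all genes. The young and aged comparisons use the inputs on which the members were chosen, so their p-values carry that limit. In the spike-in libraries 1 was higher and 6 were lower, against 31.7% and 34.7% of 14850 genes. In the NudC experiment, with 2 libraries per group, 0 were higher and 3 lower in the NudC- arm against 10.1% and 6.79% of 17325 genes, and 1 was higher and 2 lower in the NudC+ arm against 8.54% and 6.80%. In the NudC- arm 5 members had an unadjusted p under 0.05, and DESeq2 called 1 of the 10 higher. Shares over all genes are not given for these counts, so nothing is read from them. With the replicate number as a block, 2 were higher and 6 lower in the NudC- arm, where that fit called 19.8% and 22.6% of genes, and 4 higher and 5 lower in the NudC+ arm, where it called 20.1% and 20.7%. In the NudC experiment the block treats equal numbers of the 2 arms as the same liver, which is not given, so its p-values there carry that limit. In aged livers the block gave 2 higher and 5 lower, against 29.4% and 30.7% of genes. By the 2-fold rule for a NAD-RNA, 1 member qualified in NudC+ libraries, as did 7.67% of genes, and 0 qualified in young, aged, NudC- and spike-in libraries, where 13.0%, 11.5%, 9.35% and 11.4% of genes did. Called lower by as much were 3 members in young, 3 in aged, 2 in NudC-, 2 in NudC+ and 1 in spike-in libraries, against 14.2%, 14.3%, 5.66%, 6.01% and 13.4% of genes. When libraries were scaled by size alone, the median of all genes moved to -0.38 in young, -0.39 in aged, -0.82 in NudC-, -0.60 in NudC+ and -0.50 in spike-in libraries, and no member was called higher in any of these 5 comparisons, where 15.9%, 15.2%, 5.59%, 4.50% and 16.1% of genes were. Called lower were then 6 members in young, 4 in aged, 5 in NudC-, 4 in NudC+ and 7 in spike-in libraries. The share of all genes called lower with this scaling is not given, so nothing is read from these counts.

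**Figure D3:**
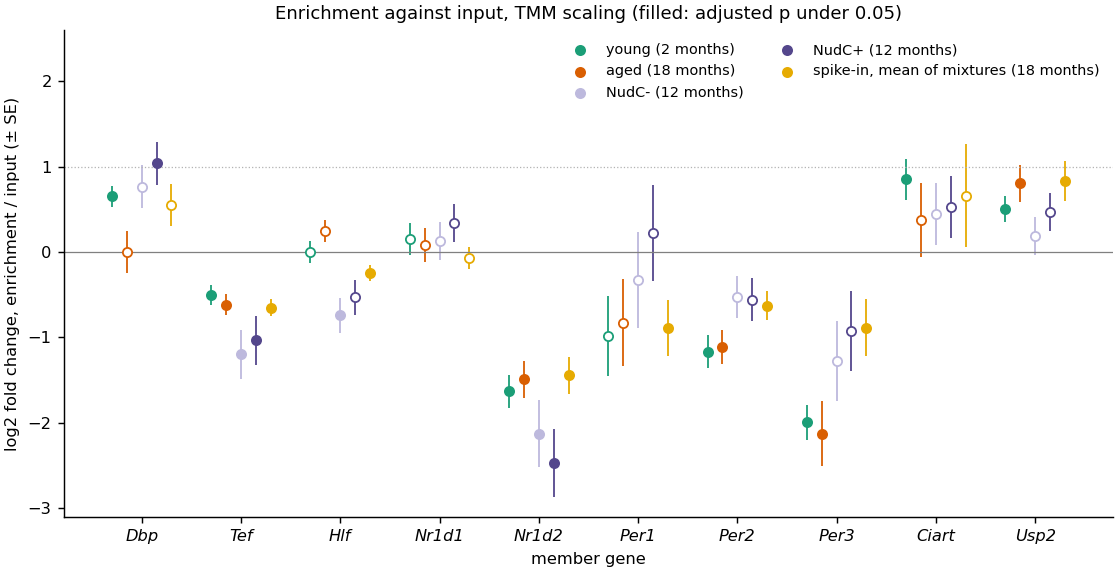
Log2 fold change of enrichment over input (± SE) for each gene in 5 comparisons, with filled points at an adjusted p under 0.05 and the dotted line at the 2-fold threshold of a NAD-RNA. Nr1d2 and Tef are below 0 and called in all 5 comparisons, and points above 0 move to 0 or below for Nr1d1 in 4 comparisons, for Per1, Ciart and Usp2 in NudC+, for Ciart and Usp2 in NudC- and for Dbp and Hlf in aged livers when libraries are scaled by size alone, as does Hlf in young livers.

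The paralogs of the PAR bZIP family, which differ in exon length, had unequal log2 fold changes. Dbp rose in young enrichment libraries, with a log2 fold change of 0.66 (SE 0.12, adjusted p = 8.2e-05, edgeR), and was higher in 4 of 4 pairs, at ratios of 0.53, 0.56, 0.86 and 0.66 on the log2 scale. In the NudC+ arm Dbp rose by 1.04 (SE 0.25, adjusted p = 0.029, edgeR), from 230 and 258 cpm in the inputs to 446 and 558 cpm in the enrichment libraries. That was the one case among the members of a NAD-RNA, which the study defined as an RNA called higher and at least 2-fold above its input. The call was lost when either replicate was left out (adjusted p = 0.24 and 0.31) and in a fit of the NudC+ libraries alone (adjusted p = 0.073). In the NudC- arm the value was 0.77 (SE 0.25, adjusted p = 0.075, edgeR), called with the replicate block (adjusted p = 1.0e-07). In the spike-in libraries it was 0.55 (SE 0.25, adjusted p = 0.052, edgeR), on 6 to 13 counts per input. There 7 of 12 pairs were above 0, and mixture means ran from -0.11 at 10% to 1.25 at 5% NAD-RNA. In aged livers, with 12 to 25 counts per input, Dbp stood at 0.00 (SE 0.24, adjusted p = 0.99), and its 4 pairs were at 0.31, 0.20, 0.34 and -0.69.

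Tef fell in all 5 comparisons, by 0.50 in young, 0.62 in aged, 1.20 in NudC-, 1.03 in NudC+ and 0.65 in spike-in libraries on the log2 scale, with adjusted p-values from 5.4e-06 to 0.044 (edgeR). It was lower in every one of the 24 pairs. The NudC calls had 2 libraries per group and were lost when either replicate was left out (adjusted p = 0.19 and 0.23 in NudC-, 0.28 and 0.33 in NudC+). Hlf was lower in the NudC- arm at -0.74 (SE 0.21, adjusted p = 0.043) and in the spike-in libraries at -0.25 (SE 0.09, adjusted p = 0.022), and not called in young at 0.01 (SE 0.13; called lower at -0.38 with library size alone, adjusted p = 0.013), in aged at 0.24 (SE 0.13) or in NudC+ libraries at -0.53 (SE 0.21). With the replicate block Hlf was called higher in aged livers (adjusted p = 0.024) and lower in NudC+ (adjusted p = 0.0029). The NudC- call of Hlf was also lost when either replicate was left out (adjusted p = 0.25 and 0.36), and the spike-in call without replicate 1 or 2 (adjusted p = 0.083 and 0.29).

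Of the REV-ERB genes, Nr1d2 was called lower throughout and Nr1d1 in none of the comparisons. Nr1d2 fell in all 5 comparisons and in every one of the 24 pairs, with log2 fold changes of -1.63 (SE 0.19) in young, -1.49 (SE 0.22) in aged, -2.13 (SE 0.39) in NudC-, -2.47 (SE 0.40) in NudC+ and -1.45 (SE 0.22) in spike-in libraries. The adjusted p-values were 2.8e-07, 4.9e-06, 0.0089, 0.0062 and 3.9e-06 (edgeR). Its level went from 58.1 and 65.7 cpm in the NudC+ inputs to 13.3 and 9.1 cpm in the enrichment libraries, and from 81.0 to 98.0 cpm in young inputs to 19.7 to 40.4 cpm. In both NudC arms the call was lost when either replicate was left out (adjusted p between 0.057 and 0.17). Nr1d1 was not called in any of the 5 comparisons, with log2 fold changes of 0.16, 0.09, 0.13, 0.34 and -0.07 in the same order, and was called with the replicate block in NudC+ libraries (adjusted p = 0.014). With library size alone it was called lower in the spike-in libraries (-0.52, adjusted p = 0.0015) and lay below 0 in the other 4 comparisons.

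The Per genes lay mostly below 0. Per2 fell by 1.17 (SE 0.19, adjusted p = 2.2e-05) in young, 1.11 (SE 0.20, adjusted p = 5.9e-05) in aged and 0.63 (SE 0.17, adjusted p = 0.0022) in spike-in libraries on the log2 scale (edgeR). Per3 fell by 2.00 (SE 0.21, adjusted p = 3.7e-08) in young, 2.13 (SE 0.38, adjusted p = 5.5e-05) in aged and 0.88 (SE 0.34, adjusted p = 0.024) in spike-in libraries. Its aged value rests on 1 to 7 counts per enrichment library, partly under the 3 counts taken as readable, and 12 to 20 per input. Its spike-in value rests on a mean of 7.79 counts per library. Neither Per2 nor Per3 was called in the NudC arms, where Per2 stood at -0.53 and -0.56 and Per3 at -1.28 and -0.92 in NudC- and NudC+ libraries. With the replicate block both were called lower in both arms (adjusted p = 0.0041 and 0.0022 for Per2, 3.5e-09 and 3.9e-06 for Per3). Per1 was lower in the spike-in libraries at -0.89 (SE 0.32, adjusted p = 0.019), a call that was lost without replicate 2 or 3 (adjusted p = 0.17 and 0.058), as was that of Per3 (adjusted p = 0.10 and 0.094). In young and aged livers Per1 stood at -0.98 (SE 0.47, adjusted p = 0.083, or 0.019 with library size alone) and -0.83 (SE 0.51, adjusted p = 0.19). All 4 young pairs were below 0, at -0.59, -1.23, -1.22 and -0.73, and all 4 aged pairs, at -0.58, -0.50, -1.03 and -0.90. With the replicate block Per1 was called lower in both ages (adjusted p = 6.9e-07 and 0.00013) and in NudC- libraries (adjusted p = 0.036).

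Ciart and Usp2 stood, like Dbp, at or above 0 in all 5 comparisons on TMM scaling, but with library size alone Ciart and Usp2 lay below 0 in both NudC arms and Dbp in aged livers, and Ciart lay at -0.63 in spike-in libraries without replicate 2. Usp2 rose by 0.50 (SE 0.15, adjusted p = 0.0070) in young, 0.80 (SE 0.22, adjusted p = 0.0039) in aged and 0.83 (SE 0.24, adjusted p = 0.0034) in spike-in libraries (edgeR), and stood at 0.19 and 0.47 in NudC- and NudC+ libraries. Its spike-in call was lost without replicate 2 (adjusted p = 0.12), and it was called in NudC+ with the replicate block (adjusted p = 0.0012). Ciart rose by 0.85 (SE 0.24, adjusted p = 0.0041) in young livers, in 4 of 4 pairs, at ratios of 0.88, 0.77, 1.08 and 0.71 on the log2 scale. In aged livers, at a mean of 9.38 counts per library, the 4 Ciart pairs ran from -0.34 to 1.16 and no difference was detectable. Ciart was called higher in both NudC arms with the replicate block (adjusted p = 0.011 and 0.0074).

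**Figure D4:**
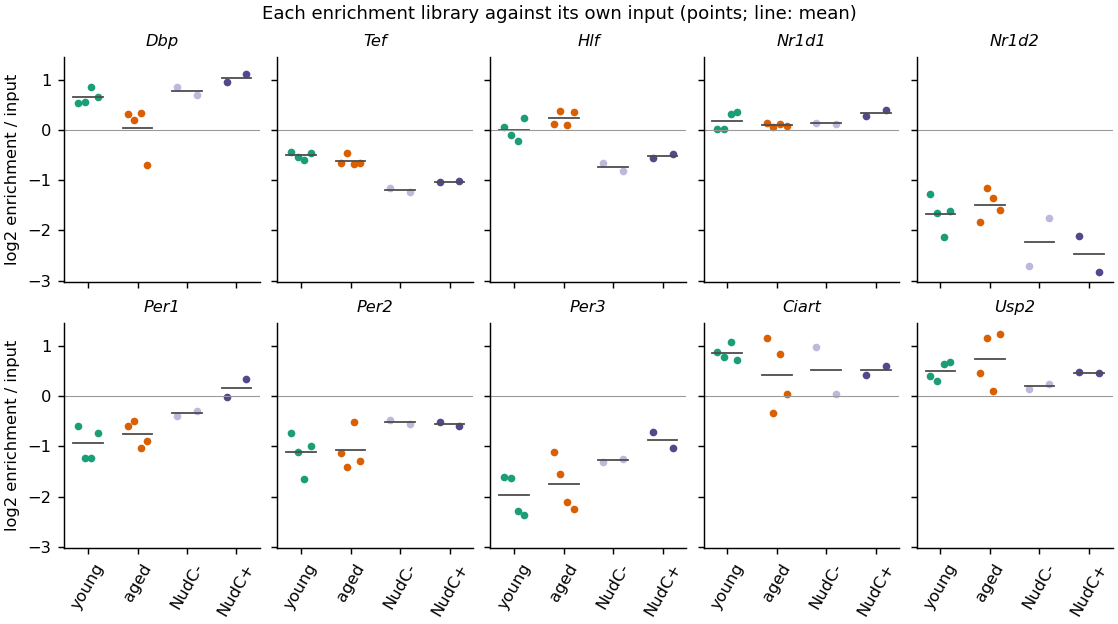
Log2 ratio of each enrichment library to the input of the same replicate (points, TMM scaling) for young and aged livers (n = 4 pairs) and the NudC- and NudC+ arms (n = 2 pairs), with the mean as a line. Nr1d2 and Tef lie below 0 in every pair shown, Dbp above 0 in all pairs but 1 aged pair at -0.69, and scaling by library size alone shifts all points down, past 0 for the fitted mean of Nr1d1 in all 4 groups.

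Capture was then compared between arms and between ages. The difference in enrichment between NudC+ and NudC- arms ran from -0.34 (Nr1d2, SE 0.54) to 0.55 (Per1, SE 0.79) on the log2 scale, 0 of the 10 were called by edgeR or DESeq2, and 0 had an unadjusted p under 0.05. Over all 17325 genes edgeR called 0, and 1.61% had an unadjusted p under 0.05. With the replicate block 0 were called as well, and Per1 alone had an unadjusted p under 0.05 (adjusted p = 0.33). Between ages the difference in log2 enrichment, young minus aged, was 0.65 (SE 0.27) for Dbp, 0.47 (SE 0.51) for Ciart and between -0.30 and 0.13 for the other 8, given without a test since it uses the inputs that chose the members.

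Enrichment followed the length of the RNA over all genes, and the members were read beside genes of like length. In young livers the median log2 fold change was 0.54 for genes with under 2 kb of merged exon, 0.30 from 2 to 4 kb, -0.30 from 4 to 8 kb and -0.86 above 8 kb. The members run from Ciart at 2.261 kb and Dbp at 2.993 kb to Tef at 7.867 kb and Per3 at 9.608 kb, and the 3 called higher in young livers are the shortest, the second shortest and, at 4.818 kb, the fourth shortest of the 10. Genes of 0.8 to 1.25 times the length of Nr1d2 (5.409 kb) had a median of -0.27 and a middle range from -0.83 to 0.36 in young livers, where Nr1d2 stood at -1.63. For Per3 the like-length median was -0.77 with a middle range from -1.31 to -0.12, against -2.0. Per1 at -0.98 and Per2 at -1.17 also lay below their ranges, whose lower ends were -0.88 and -0.92. Dbp at 0.66 and Ciart at 0.85 lay within the middle range of their like-length genes, -0.29 to 0.79 and -0.09 to 0.99, while Usp2 at 0.50 lay above its range of -0.73 to 0.41. In young livers Tef at -0.50 and Hlf at 0.01 also lay within their middle ranges, -1.19 to -0.005 and -1.05 to 0.17. Tef stood near its like-length median in aged (-0.62 against -0.64) and spike-in libraries (-0.65 against -0.65). In NudC- libraries Tef at -1.20 lay below its range of -1.05 to -0.10. In NudC+ libraries Dbp at 1.04 lay above a range of -0.49 to 0.62, and Tef at -1.03 within one of -1.11 to -0.06. The Per genes did not all lie below their ranges outside young livers. In NudC+ libraries Per1 at 0.22 lay above its range of -0.89 to 0.17, and Per2 at -0.56 and Per3 at -0.92 lay within theirs. In spike-in libraries Per2 at -0.63 and Per3 at -0.88 lay within and Per1 at -0.89 just below. Per2 and Per3 lay below and Per1 within in aged livers, and Per3 below and Per1 and Per2 within in NudC- libraries. The part of length in these values was not tested.

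**Figure D5:**
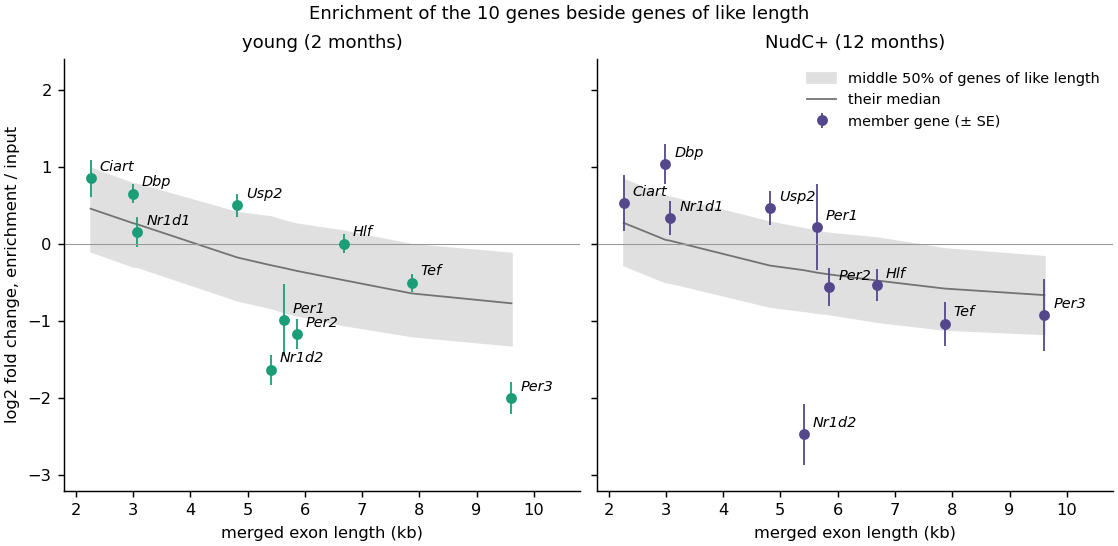
Log2 fold change of enrichment over input (± SE) against merged exon length for the 10 genes in young livers and in the NudC+ arm, with the median and the middle range (between the quartiles) of genes of 0.8 to 1.25 times the length. Nr1d2 lies below the range in both panels and Per1, Per2 and Per3 in young livers, on TMM scaling, where Dbp, Ciart and Usp2 are above 0.

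The other lists were captured as follows, by the same fit. Over all genes 27.0% were called higher and 27.2% lower in young, and 26.5% and 27.7% in aged libraries. The shares were 10.1% and 6.79% in NudC-, 8.54% and 6.80% in NudC+, and 31.7% and 34.7% in spike-in libraries. Lists this short are described beside these shares without a test. Of the 13 other clock genes, 1 was called higher and 4 lower in young, 2 and 5 in aged, 0 and 2 in NudC- and 0 and 3 in NudC+ libraries, and 1 and 8 of 12 tested in spike-in libraries. Clock, the partner of BMAL1, and Rora, the activator that competes with the REV-ERB proteins, were named after their values were seen. Rora was called lower in all 5 comparisons, at -1.24, -1.40, -1.18, -1.21 and -1.14 in the order young, aged, NudC-, NudC+ and spike-in (edgeR, adjusted p from 1.3e-07 to 0.014). Clock stood at -1.20, -1.72, -1.06, -1.60 and -1.22 in that order and missed the threshold in the NudC- arm (adjusted p = 0.052). Of the 7 PAR bZIP targets 2 or 3 were called higher in young, aged and spike-in libraries and 1 was called lower in each of these and in NudC+ libraries. Of the 7 genes of E-box output and NAD synthesis 4, 5 and 5 were called higher in young, aged and spike-in libraries and 0 in the NudC arms, and 1 was called lower in each of the 5 comparisons. Of the 6 immediate early genes 2, 2 and 1 were called higher and 1 lower in young, aged and spike-in libraries, and 0 in either NudC arm.

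Across experiments that share no library, the 10 log2 fold changes ran in a like order. Pearson's r over the 10 genes was 0.76 between young and NudC+ libraries (Spearman's rho 0.87), 0.91 between young and spike-in (0.88) and 0.83 between NudC+ and spike-in (0.82). It was 0.68 between aged and NudC+ (0.71) and 0.86 between aged and spike-in (0.87). These are descriptions, since the points share the RNA's length and kit. Strand is not stated among the counting settings, so reads in shared exon bases cannot be assigned. Such bases made up 18.0% of the exon length of Dbp (with Sphk2 on the opposite strand), 8.55% of Nr1d1 (with Thra), 4.15% of Usp2 and 2.45% of Tef, and 0 in the other 6 members.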

How the data were processed

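Polyadenylated RNA of 48 mouse liver libraries was measured by paired-end sequencing. Adapters were removed by the authors with Trim Galore, alignment to GRCm38 was by STAR, and featureCounts assigned read pairs to exons of a GENCODE annotation. The deposited values are raw counts per gene in 3 tables. Strand settings and the hour of dissection are not given in the sources used here. In the NudC table, 4 count columns matched no sample of the labels and were not used. Groups were taken from the labels. Members and lists were chosen with earlier results of these data known.

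Identifiers were matched to GENCODE M21 for symbols and merged exon length: 55154 of 55335 in the age and NudC tables and 52981 of 52982 in the spike-in table. As in the study, a gene was dropped from an experiment if over 25% of its libraries held no count. Counts were scaled by TMM and fitted per experiment over all its groups with the quasi-likelihood test of edgeR 4.0.16 (R 4.3.3), two-sided, with Benjamini-Hochberg adjustment over all tested genes. DESeq2 1.42.0 was an alternative. Tables used Python 3.11.15 with pandas 2.3.3, numpy 2.4.6 and scipy 1.17.1, and plots matplotlib 3.10.9. Levels are TMM-scaled cpm, scaled separately in each experiment. Log2 ratios per pair used a prior count of 2. Values under 3 counts were taken as not readable, which covers counting error only. Median totals were 11394991, 7815705 and 7822824 read pairs per library in the age, NudC and spike-in experiments.

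Inputs were aliquots of the reaction that gave the enrichment library of the same number, so numbers pair the 2 assays. Deviations from the group means correlated at 0.135 to 0.261 within numbers in the age, 0.496 to 0.542 in the NudC and 0.050 to 0.235 in the spike-in experiment. Between numbers they ran from -0.156 to 0.001, -0.542 to -0.496 and -0.170 to 0.080, so the spike-in ranges overlapped. Deviations within a group cancel out, which pushes the values between numbers to the opposite sign. The values between numbers are therefore no separate evidence of pairing. The replicate block was fitted as an alternative. In the age and spike-in enrichment fits it used a term per pair. In the NudC fits and between the mixtures, a term per replicate number was shared across arms or mixtures. This treats equal numbers as the same liver, which is not given for the arms. By the Nnt counts it does not hold between mixtures with 0% or 5% and those with 1% or 10% NAD-RNA.

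All 10 members were named. From each list every tested gene was counted, the 3 with the largest input difference between ages were named, and the 5 genes with the highest and the 5 with the lowest correlation with the members were taken, of which 1 is not reported here. On simulated counts with 200 genes changed 4-fold, edgeR recovered 199 of 200 in the young comparison over 15636 genes, 113 in NudC+ over 17325, 200 in spike-in over 14850 and 191 between mixtures over 14850.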

Additional observations from a re-analysis of the deposited data

Results flagged for a closer look

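In each group of 4 libraries or 4 pairs of the age experiment, a value was singled out where its gap to the nearest of the others exceeded 0.829 of the group's range. Of 60 groups 5 were singled out, and chance gives about 1 in 20. The log2 ratio of enrichment to input of Dbp in aged livers had its lowest pair at -0.69, with the others at 0.20 to 0.34. That of Tef in aged livers had its highest pair at -0.47, with the others at -0.67 to -0.66. Among the aged enrichment libraries, 1 held Hlf at 44.2 cpm, with the others at 31.6 to 33.3 cpm. Among the young enrichment libraries, 1 held Nr1d1 at 94.7 cpm, with the others at 75.3 to 77.8 cpm. The highest Per3 level among young inputs was 17.9 cpm, with the others at 15.8 cpm.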

How the results depend on the processing

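Of the alternatives tried, all of them planned, 102 of 132 values that answer a comparison kept their direction and their side of the threshold. Library size alone gave 0 members called higher in young, aged, NudC+ and spike-in libraries, with 6, 4, 5, 4 and 7 called lower in young, aged, NudC-, NudC+ and spike-in libraries, and moved the members' median age difference in the inputs to 2.17. It also turned Hlf (-0.38) and Nr1d1 (-0.23) in young, Dbp (-0.38), Hlf (-0.14) and Nr1d1 (-0.30) in aged, Nr1d1 (-0.58), Ciart (-0.30) and Usp2 (-0.51) in NudC- and Nr1d1 (-0.21), Per1 (-0.33), Ciart (-0.020) and Usp2 (-0.077) in NudC+ libraries, and the arm difference of Per2 (0.13). By construction this scaling leaves the shift of the median gene in place, and the share of all genes it called lower is not given. The replicate block gave 2 called higher in aged, 2 higher and 6 lower in NudC- and 4 higher and 5 lower in NudC+ libraries, put Hlf in young livers at -0.0015, and added Per1 in both ages and Hlf in aged livers. It changed no call in the spike-in means, the mixtures or the arm difference. DESeq2's test and its size factors each gave 1 called higher in NudC- and 2 in spike-in libraries, and its size factors 1 called lower in NudC+. A mean of at least 10 counts gave 2 called higher in spike-in libraries. Fits of only the groups compared gave 1 called lower in NudC- and 0 higher and 1 lower in NudC+, with Hlf in young at -0.0085 and Dbp in aged at -0.0085. Without a filter beyond 1 count these stood at -0.017 and -0.033. Leaving out 1 replicate gave 0 called lower in NudC- and 0 higher and 0 lower in NudC+, where the lone sample was assumed to vary like the other groups, and 0 to 2 higher and 3 to 5 lower in spike-in libraries, lowest without replicate 2. Over these the value of Hlf ran from -0.076 to 0.048 in young, that of Dbp from -0.11 to 0.30 in aged, and in spike-in libraries that of Nr1d1 from -0.15 to 0.042 and that of Ciart from -0.63 (without replicate 2) to 1.68. The arm difference ran from -0.73 to 0.27 for Nr1d2, from -0.071 to 0.050 for Per2 and from -0.45 to 0.51 for Ciart. For the DESeq2, filter, groups-compared and left-out-replicate fits, shares over all genes are not given, so their counts of calls are descriptions. The cause of the changes under the alternatives was not tested. Depth limits Dbp, Per3 and Ciart in 18-month livers.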
